A study of Mus musculus with 7 samples.

Results

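Oct1 binding was compared between the end points of a differentiation series, undifferentiated mouse embryonic stem cells (ESCs) and day 6 of their differentiation towards mesoderm. The members are all 17709 peaks in the ESC Oct1 list and all 7758 peaks in the day 6 Oct1 list, chosen by sample and not by any measured value. Together they make 25467 of the 53151 peaks in the 4 lists of the series, the others being Oct1 at day 3 and Oct4 in ESCs. Both samples came from parental cells, without a gene deletion, and both were immunoprecipitated with the antibody NBP2-21584 after crosslinking in 1% formaldehyde. The ESC library came from cells before differentiation. The day 6 library came from cells kept for 2 days with Bmp4, a BMP ligand, and then for 4 days with Rspo3, which strengthens Wnt signalling, and LDN-193189, which inhibits BMP receptors. Each side was 1 library, so no difference between them can be set against replicate error, and no test across libraries was made. The intervals given are exact Clopper-Pearson 95% intervals and cover the counting of peaks only. Sequencing was paired (50 bp, a planned 100M read pairs per the labels), but how many reads stand behind each list cannot be read from it. Peaks do not measure expression, so the labelled cell types could not be checked against marker levels.

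Oct1, the product of Pou2f1, is a broadly expressed transcription factor with a bipartite POU domain that contacts the octamer sequence. Oct4, the product of Pou5f1, has a related POU domain and is a central pluripotency factor of ESCs. Octamer elements close to transcription starts are known from histone and small nuclear RNA genes, whereas many sites bound by POU factors in ESCs lie in distal enhancers. The comparison therefore asked which genes had Oct1 at an end of the gene and which had it only farther away, before and after differentiation.

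A peak was counted as a gene-end peak when its midpoint lay no more than 1 kb from the start or the far end of an annotated gene. A gene was called distant when it had no such peak but had a midpoint inside the gene or within 10 kb of it. The authors' score of each peak has no stated unit, so it was used to rank peaks within its own list. Scores of the 2 lists are given side by side and are not on a known common scale. A gained or lost peak is one that only the later or only the earlier list holds. A score percentile of 90 means a place above about 90% of that list.

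The octamer was read in the RefSeq promoter of each gene (assembly GRCm38.p6), which runs from 250 bases before to 50 bases after a listed transcription start. Stretches of 100 bases are shown for some genes that held an exact octamer and an Oct1 peak at the promoter. They are not typical of the switch. An exact octamer was present in 1.38% of the genes that went from distant to gene-end and in 4.19% of the reverse. All run 5′ to 3′ on the strand of the gene, and capitals mark the octamer ATGCAAAT or its reverse complement ATTTGCAT. The first 5 belong to genes called distant in ESCs and gene-end at day 6. They are Armc6 (chr8:70234515-70234614, minus strand), Orai1 (chr5:123014938-123015037, plus strand), Chd6 (chr2:161109176-161109275, minus strand), Dll1 (chr17:15375974-15376073, minus strand) and Cic (chr7:25281987-25282086, plus strand).
Armc6: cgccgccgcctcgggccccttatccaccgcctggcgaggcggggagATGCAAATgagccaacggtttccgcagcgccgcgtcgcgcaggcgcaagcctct
Orai1: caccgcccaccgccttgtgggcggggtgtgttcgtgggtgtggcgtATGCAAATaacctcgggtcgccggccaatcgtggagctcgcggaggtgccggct
Chd6: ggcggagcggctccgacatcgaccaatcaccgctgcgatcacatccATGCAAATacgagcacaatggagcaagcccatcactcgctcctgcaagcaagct
Dll1: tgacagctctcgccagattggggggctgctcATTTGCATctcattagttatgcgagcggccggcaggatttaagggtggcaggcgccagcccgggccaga
Cic: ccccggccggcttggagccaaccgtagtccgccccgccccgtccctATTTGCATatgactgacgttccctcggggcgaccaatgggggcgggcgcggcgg

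The next 3 belong to genes called gene-end in ESCs and distant at day 6, namely Pipox (chr11:77894014-77894113, minus strand), Liph (chr16:21995576-21995675, minus strand) and the histone gene H2ac8 (chr13:23571295-23571394, minus strand).
Pipox: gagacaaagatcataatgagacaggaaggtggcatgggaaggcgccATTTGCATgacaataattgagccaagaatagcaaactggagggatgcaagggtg
Liph: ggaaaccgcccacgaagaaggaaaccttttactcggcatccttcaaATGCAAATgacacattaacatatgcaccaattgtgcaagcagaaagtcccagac
H2ac8: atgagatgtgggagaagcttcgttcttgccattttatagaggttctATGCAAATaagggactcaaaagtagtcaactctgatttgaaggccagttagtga

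The last 3 had a gene-end peak at both times. They are Cables2 (chr2:180273471-180273570, minus strand), Irf3 (chr7:44997548-44997647, plus strand) and Prrc2a (chr17:35164911-35165010, minus strand).
Cables2: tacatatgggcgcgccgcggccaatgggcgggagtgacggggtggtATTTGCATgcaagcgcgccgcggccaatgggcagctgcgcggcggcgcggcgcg
Irf3: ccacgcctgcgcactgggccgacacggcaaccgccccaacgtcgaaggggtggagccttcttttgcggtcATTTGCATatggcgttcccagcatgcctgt
Prrc2a: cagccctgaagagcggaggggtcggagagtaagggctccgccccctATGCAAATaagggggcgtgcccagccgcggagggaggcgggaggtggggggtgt

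At day 6 the promoter of Armc6 overlapped a peak with score 4010 (rank 52 of 7758), and that of Orai1, a calcium channel subunit of the plasma membrane, one with score 2135 (rank 251). Chd6, which encodes a chromatin remodelling enzyme, had a score of 1670 there (rank 498), and Dll1, a Notch ligand of the presomitic mesoderm, had 762 (rank 2514). None of these 4 promoters overlapped an ESC peak, as the class rule largely requires of a promoter at a gene end. Their ESC peaks lay 7471 bp (Armc6, score 276), 6353 bp (Orai1, score 133), 6392 bp (Chd6, score 53) and 3893 bp (Dll1, score 157) from the gene ends. Cic, which encodes the repressor Capicua, differed from them. The promoter shown overlapped a peak at both times (ESC score 842, day 6 score 2135), but it lies inside the annotated extent of the gene, 12138 bp from its end as measured from the ESC peak. It was therefore called distant in ESCs, and its gene-end peak at day 6 was a separate one at percentile 38.6.

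Pipox, a peroxisomal enzyme gene, had a score of 884 at its promoter in ESCs (rank 396 of 17709), Liph, a lipase gene, had 790 (rank 468) and H2ac8 had 786 (rank 473). No day 6 peak overlapped these 3 promoters, which their class at day 6 likewise largely requires. Their highest distant scores at day 6 were 142 for Pipox, 617 for Liph and 293 for H2ac8. The H2ac8 site also lies at the start of the neighbouring histone gene H2bc8, so both genes were counted from 1 peak. Cables2 scored 5126 in ESCs (rank 69) and 7473 at day 6 (rank 16). Irf3, an interferon regulatory factor gene that shares its site with Bcl2l12, scored 4298 (rank 81) and 3975 (rank 54). Prrc2a scored 2230 (rank 139) and 6258 (rank 24). These 3 promoters ranked in the top 1% of both lists.

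Gene-end peaks made up a larger share of the day 6 list than of the ESC list. In ESCs 3062 peaks (17.3%, interval 16.7 to 17.9) were gene-end peaks, and at day 6 5924 (76.4%, 75.4 to 77.3). Within both lists the gene-end peaks stood higher than the others. Their median percentile was 62.0 in ESCs, against 46.6 for peaks farther away, and 56.2 at day 6, against 24.8. From the lowest to the highest 10% of scores, the gene-end share went from 10.8% to 32.8% in ESCs. At day 6 it was 34.1% in the lowest 10%, 60.5% in the next and 76.1% in the one after, and it lay between 79.8% and 87.6% in the remaining score classes. The intervals of the lowest and highest classes did not overlap in either list.

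**Figure D1:**
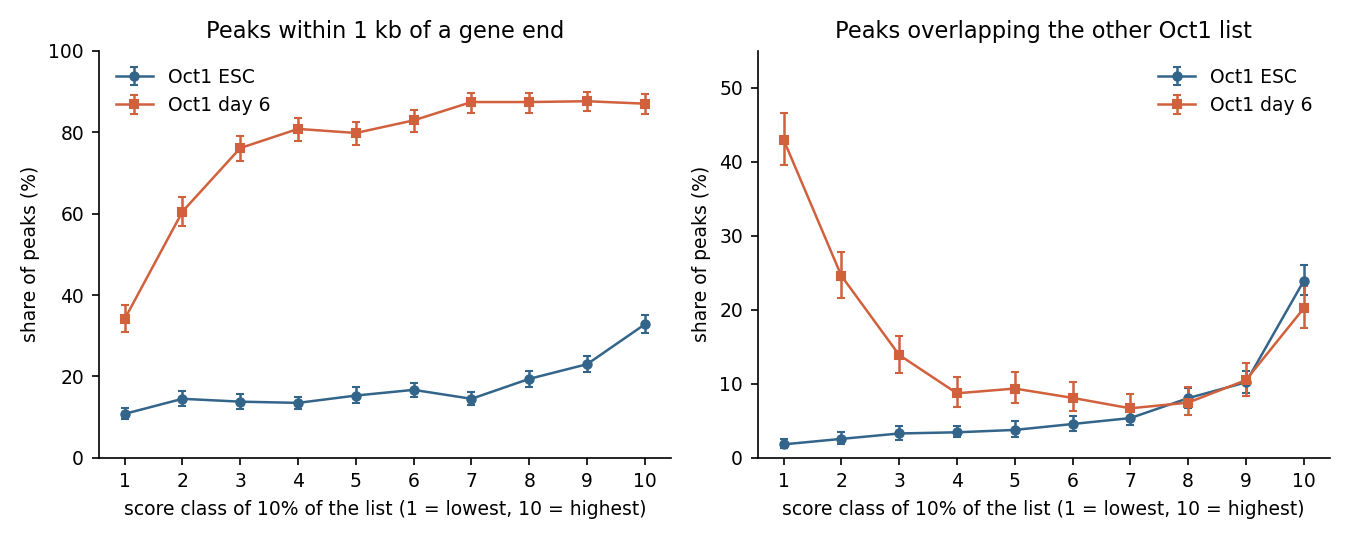
Share of peaks within 1 kb of a gene end (left, %) and share overlapping a peak of the other Oct1 list (right, %) by score class of 10% within each list; points are shares of 1 library, and bars are 95% Clopper-Pearson intervals. The gene-end share is highest in the top class of the ESC list (32.8%), and in the day 6 list only the lowest class lies below 50%, at 34.1%.

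Peaks at gene ends were found again at the other time to a different extent than peaks farther away, and in opposite directions from the 2 sides. Of the ESC gene-end peaks, 18.7% (17.4 to 20.2) overlapped a day 6 peak, against 4.14% (3.82 to 4.47) of the ESC peaks farther away. Of the day 6 gene-end peaks, 9.76% (9.01 to 10.5) overlapped an ESC peak, against 33.0% (30.8 to 35.2) of the day 6 peaks farther away. Day 6 peaks away from gene ends were thus more often ESC sites than day 6 gene-end peaks were. This order held in each of the 10 score classes of the day 6 list, with the widest gap in the lowest (55.7% away from gene ends, 18.5% at gene ends).

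The ESC Oct4 list and the day 3 Oct1 list did not enter the classification. Oct4 overlapped 56.7% (55 to 58.5) of ESC Oct1 peaks at gene ends and 59.6% (58.8 to 60.4) of those farther away. At day 6 the same Oct4 list overlapped 5.99% (5.40 to 6.63) of the gene-end peaks and 35.4% (33.2 to 37.6) of the others. Oct1 at day 3 overlapped 39.4% (38.2 to 40.7) of day 6 gene-end peaks and 27.5% (25.5 to 29.6) of the more distant ones. Day 6 gene-end peaks were therefore seldom sites of Oct4 in ESCs and more often sites of Oct1 at day 3.

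The sites listed at both times numbered 1180, counted as ESC peaks, of which 574 lay at a gene end and 606 farther away. Gene-end sites stood higher in both lists, with a median percentile of 90.0 in ESCs and 59.3 at day 6. For the sites farther away the medians were 67.7 and 10.5. The lists differ in length, so a percentile gives a place within its own list and a difference in place is not a change in binding. The percentile was lower in the day 6 list for 470 of the 574 gene-end sites (81.9%) and for 560 of the 606 others (92.4%). With the ESC list shortened to the 7758 peaks of the highest scores, 865 shared sites remained, and the shares were 66.7% of 499 gene-end sites and 85.8% of 366 others. The medians were then 84.0 and 64.1 at gene ends, and 64.8 and 16.5 farther away. Across the 1180 sites the percentiles correlated with a Pearson's r of 0.545 and a Spearman's rho of 0.646, a description of sites that share the same 2 libraries. An Oct4 peak overlapped 504 of the 606 distal sites (83.2%) and 285 of the 574 gene-end sites (49.7%). Among the gene-end sites without Oct4 the median percentile at day 6 was 79.9, and among those with Oct4 it was 39.1.

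**Figure D2:**
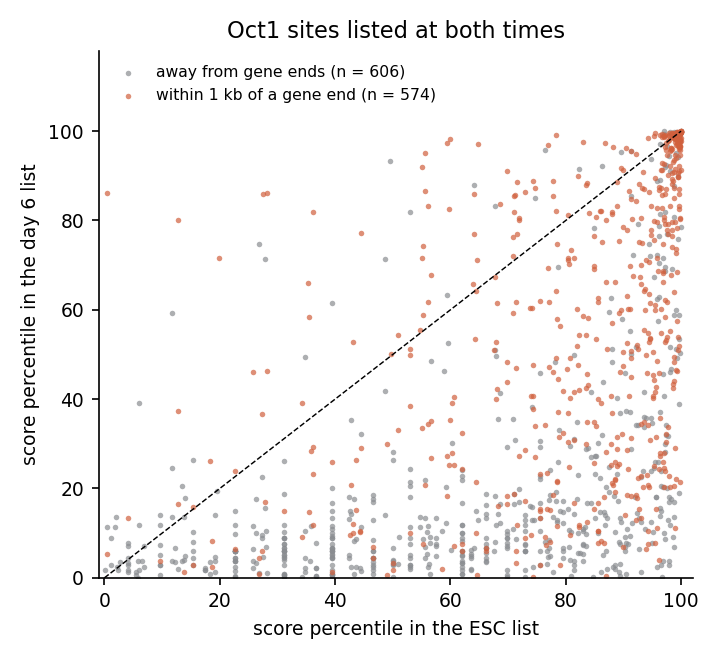
Score percentile in the ESC list (x axis) and in the day 6 list (y axis) of the 1180 ESC Oct1 peaks that overlap a day 6 peak, coloured by position; the dashed line marks equal percentiles. Most points lie below the line, and sites away from gene ends gather near the floor of the day 6 list, with a median percentile of 10.5.

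The 3 sites with the widest gap in favour of day 6 were all at gene ends. All 3 had low ESC scores and are not in the shortened ESC list. A peak at B9d2, which encodes a protein of the ciliary transition zone, had score 33 (percentile 0.407) in ESCs and 1229 (86.1) at day 6. The site at Asf1b, a histone chaperone gene, had 57 (12.8) and 1042 (80.1), and that at Smdt1, a subunit of the mitochondrial calcium uniporter, 76 (27.6) and 1226 (86.0). None of the 3 overlapped an Oct4 peak in ESCs. The 3 sites with the widest gap in favour of ESCs were all away from gene ends and all had an Oct4 peak. Their percentiles in the shortened ESC list were between 92.3 and 95.1. They lay inside Apobec3, a cytidine deaminase gene (658, percentile 96.6, and 42, percentile 0.142), 6436 bp from C1qa, a complement gene (910 and 70), and 16277 bp from Tcf7, a transcription factor gene of the Wnt pathway (905 and 77).

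By gene, gene-end peaks were also more numerous at day 6. Of 21887 protein-coding genes, 1865 (8.52%) had a gene-end peak in ESCs and 5773 (26.4%) only distant peaks. At day 6 these numbers were 6444 (29.4%) and 2595 (11.9%). The switch from distant in ESCs to gene-end at day 6 was made by 1981 genes, which is 9.05% of all genes and 34.3% of those distant in ESCs. The reverse switch was made by 239 genes, 1.09% of all genes and 12.8% of those with a gene-end peak in ESCs. A gene-end peak at both times was listed for 798 genes (3.65%), and 1194 genes (5.46%) were distant at both. The largest group with a day 6 gene-end peak had no ESC peak at all within 10 kb (3665 genes, 16.7%). In the other direction, 2598 genes (11.9%) went from distant to no peak and 828 (3.78%) from gene-end to no peak, and 9422 (43.0%) had a peak at neither time. The numbers depend on the length of the lists and on the flank searched for distant peaks. The switch from distant to gene-end counted 1196 genes with the ESC list shortened to 7758 peaks, and 3909 with distant peaks taken up to 50 kb away. The reverse switch counted 143 and 625.

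The share with a day 6 gene-end peak was 42.8% among genes with a gene-end peak in ESCs, 34.3% among genes distant in ESCs and 25.7% among genes without an ESC peak, beside 29.4% of all genes. Long genes offer more room for a distant peak, and the median length was 31329 bp for genes that went from distant to gene-end and 10292 bp for genes with a peak at neither time. The other genes distant in ESCs were also long, with 28236 bp for those without a day 6 peak and 27540 bp for those distant at both times. Within the shortest 20% of genes, 24.6% of the genes distant in ESCs had a day 6 gene-end peak, against 10.7% of those without an ESC peak. Within the longest 20% the shares were 35.4% and 32.0%. The order was the same in all 5 length classes, and the gap was widest among short genes.

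**Figure D3:**
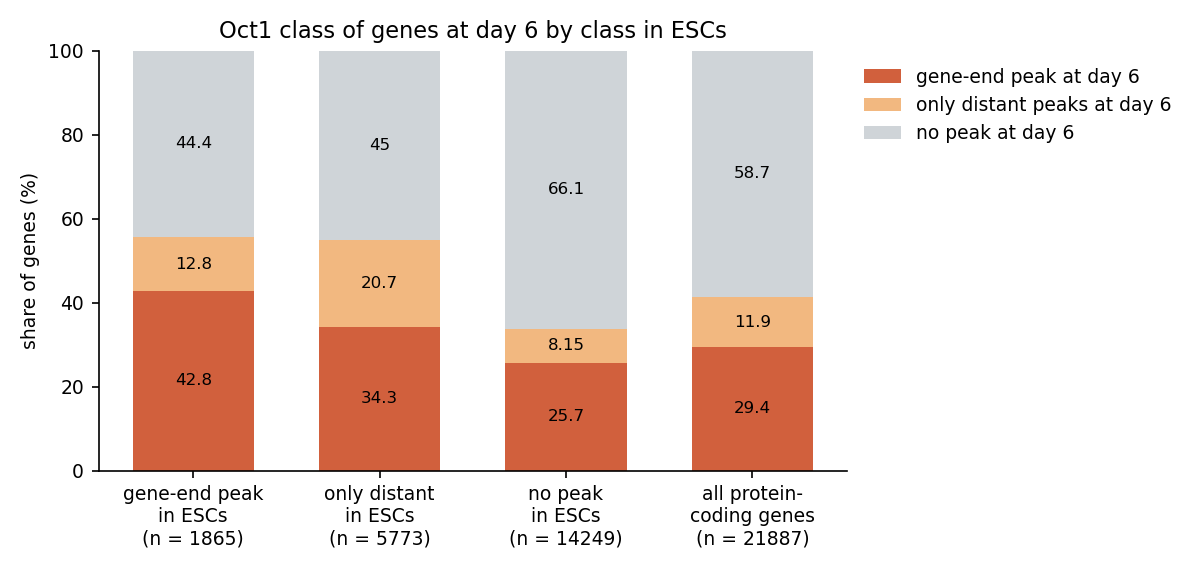
Share (%) of protein-coding genes with a gene-end peak, only distant peaks or no peak at day 6, by their class in ESCs, with the number of genes under each bar; each bar adds up to 100%. The gene-end share at day 6 falls from 42.8% to 34.3% to 25.7% across the ESC classes.

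The genes that went from distant to gene-end changed peaks, and seldom had 1 peak that crossed the limit. Their 1981 day 6 classes rested on 1880 distinct gene-end peaks, and 260 of these genes shared their leading day 6 peak with another gene of the group, so genes are not independent. Only in 4 genes did the leading ESC peak overlap the leading day 6 peak. The median distance from the gene end was 7516 bp for the leading ESC peak and 104 bp for the leading day 6 peak. The class rule puts the leading ESC peak more than 1 kb away and the leading day 6 peak within 1 kb. These distances and the few overlaps therefore largely follow from the rule. The leading ESC peak lay within 500 bp of the 1 kb limit in 70 genes (3.53%, beside 4.50% of all genes distant in ESCs), and the leading day 6 peak in 166 (8.38%, beside 9.06% of all genes with a day 6 gene-end peak). An ESC peak of the gene was still listed at day 6 in 259 genes (13.1%), near the 13.0% of all genes distant in ESCs.

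Day 6 gene-end peaks lay mostly at the start of the gene, in switching genes as in others. Strand was known for 1599 of the 1981 genes, and 97.9% of them had the peak at the transcription start, with 2.13% at the far end only. Over all genes with a day 6 gene-end peak the share at the start was 97.2%. In ESCs a gene-end peak was less bound to the start, with 68.6% at the start and 31.4% at the far end only among 1491 genes. The ESC peaks of the switching genes lay inside the gene in 1202 cases (60.7%), and in 250 genes (12.6%) every ESC peak within reach lay at an end of another annotated gene. Both shares were near those of all genes distant in ESCs (62.2% and 13.2%). Of their 3892 distinct ESC peaks, 62.4% (60.9 to 64.0) overlapped an Oct4 peak, close to the 59.1% (58.3 to 59.8) of all ESC Oct1 peaks. At day 3, 763 of these genes (38.5%) already had a gene-end peak, 315 (15.9%) had only distant peaks and 903 (45.6%) had none. The day 3 gene-end share was 40.9% over all genes with a day 6 gene-end peak and 14.0% over all genes.

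The switching genes with the highest scores on both sides are described first. Safb2, which encodes a scaffold attachment factor that binds RNA, had an ESC peak 8300 bp from its end (score 1939, percentile 99, chr17:56552011-56553330) and a day 6 peak 145 bp from its start (2718, 98.4, chr17:56584361-56585280). Scaf1, a gene for an arginine- and serine-rich protein linked to splicing, had its ESC peak 5390 bp away (4298, percentile 99.5), at the end of Bcl2l12, and a day 6 peak at its own start (2712, 98.4). That ESC peak is the Irf3 site shown above and was still listed at day 6. Tbc1d10b, a regulator of Rab GTPases, had an ESC peak 1403 bp away (1301, 98.6), at an end of Cd2bp2, and a day 6 peak 77 bp from its start (2601, 98.2). These 3 genes, picked for high percentiles on both sides, had a peak in the top 2% of both lists, at different places.

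Glis2, a zinc-finger transcription factor gene, went from 7509 bp (score 1626) to 195 bp (2145), and its ESC site was still listed at day 6. The same held for Atp6v1b2, a subunit of the vacuolar proton pump (768 at 7992 bp, then 2041 at 54 bp), and for Tmem205 (4218 at 9385 bp, then 1808 at 39 bp). In Supt4a, a transcription elongation factor gene, the ESC peak lay 5917 bp away (533) and the day 6 peak 75 bp from the start (2070). Capzb, which encodes an actin-capping subunit, had 9 ESC peaks, the highest 39986 bp inside the gene (515), and 1 peak at day 6, 93 bp from its end (2256). Mrpl45, of the mitochondrial ribosome, went from 7382 bp (484) to 827 bp (2463). LOC108167694 had the highest scores of the group (37956 in ESCs, rank 10, and 5061 at day 6, rank 33). Its ESC peak lay 1610 bp away and overlapped the day 6 peak, whose midpoint lay 320 bp from its end, so here the class changed at a shared site.

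Among the 239 genes that made the reverse switch, the leading ESC peak lay within 500 bp of the 1 kb limit in 95 (39.7%), beside 32.2% of all genes with a gene-end peak in ESCs. Among 191 genes with known strand, the ESC peak was at the start in 56% and at the far end only in 44.0%. In 45 of the 191 (23.6%) the distant day 6 peak lay within 1 kb of a listed start inside the annotated extent of the gene, near the 25.9% (248 of 956) of genes distant at both times for their day 6 peak. These 45 genes could also be read as holding a promoter peak at day 6. Over all 239 genes the median best percentile was 63.6 in ESCs and 49.1 at day 6, and the leading peaks overlapped in 7 genes.

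The 8 leading genes of this switch held several such cases. Slc35g3, a solute carrier gene, was counted through the Polr2a site, where the midpoint moved from 933 bp to 1143 bp from its far end (score 124348 in ESCs and 13341 at day 6). In Tnrc6c, which acts in silencing by microRNAs, the same site moved from 982 bp to 1117 bp (4044 and 3006), and at day 6 it lay 532 bp from a listed start. In Dennd4a, a regulator of Rab GTPases, the day 6 peak (1150) lay 380 bp from a listed start, whereas its ESC peak (334) was at the far end. These 3 changes of class do not describe a lost promoter peak.

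The other 5 genes had a separate day 6 peak more than 3 kb from the ends of the gene, which for Rdm1 and Lin37 was a site already listed in ESCs. Rdm1, which encodes a protein related to Rad52, had a peak 131 bp from its end in ESCs (chr11:101626721-101627500) with score 14011 (rank 25), and at day 6 a peak 5481 bp away (2703). No day 6 peak overlapped the ESC site, which stood in the top 1% of the ESC list. Eif3k, a translation initiation subunit, had its ESC peak at the start (343), and its distant day 6 peak (4461, rank 42) lay at an end of Actn4. Lin37, of the DREAM complex that represses cell-cycle genes, had 436 at its start in ESCs and 1262 at an end of U2af1l4 at day 6. Celsr3, an atypical cadherin gene, went from 478 upstream of its start to 1573 within the gene, 6622 bp from its end. Espn, an actin-bundling protein gene, went from 400 at its far end to 1156 inside the gene.

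Genes with a gene-end peak at both times mostly kept the same site. Their leading peaks overlapped in 555 of 798 genes (69.5%), their median best percentile was 83.9 in ESCs and 61.4 at day 6, and 62.8% of them had a gene-end peak at day 3. The highest were at Stac3 (score 163148 in ESCs, 19045 at day 6), Zmiz2 (96154 and 30599), Polr2a (124348 and 13341) and Fbxo47 (43029 and 13835). Genes distant at both times kept the leading site in 323 of 1194 cases (27.1%). The class rule places gene-end peaks of both lists within 1 kb of an end of the gene. Distant peaks may lie anywhere else in the gene or up to 10 kb from it. The rule itself thus makes overlap more likely for gene-end peaks, and its part in these shares was not tested. At Shmt2 and Zbtb4 the distant site was the gene-end site of a neighbour, Ndufa4l2 and Polr2a. Macrod1, an enzyme gene for ADP-ribose removal, kept a site 53991 bp inside the gene (39871 in ESCs, rank 9, and 7494 at day 6, rank 15).

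The exact octamer was most frequent at promoters with high-scoring peaks. It was present in 1.66% of all 21263 promoters, in 7.03% (5.60 to 8.68) of the 1124 promoters that overlapped an ESC peak and in 1.48% (1.2 to 1.82) of the 6263 that overlapped a day 6 peak. In the top 1% of scores it was present in 37.5% (25.7 to 50.5) of the ESC promoters and in 15.4% (7.63 to 26.5) of the day 6 promoters. In the lower 50% of scores the shares were 0.526% and 0.822%. The octamer share thus rose with the score in both lists, and day 6 as a whole stood near the share of all promoters. Promoters with a day 6 peak also had a higher median GC content (65.3%) than those with an ESC peak (56%) or all promoters (56.3%), and the part of GC content in these shares was not tested.

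**Figure D4:**
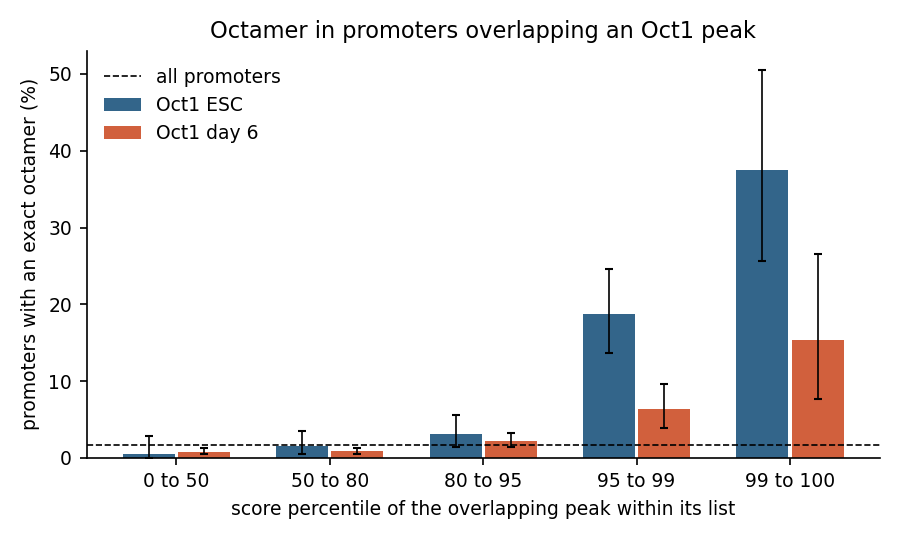
Share (%) of RefSeq promoters of 300 bases with an exact octamer on either strand, by the score percentile of the overlapping Oct1 peak; bars are shares of promoters in 1 library with 95% Clopper-Pearson intervals, and the dashed line is the share of all promoters (1.66%). The share is 37.5% in the top class of the ESC list and 15.4% in that of day 6, and below the dashed line under percentile 80 in both.

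By gene class, an octamer was present in a promoter of 22 of 1599 genes (1.38%) that went from distant to gene-end, of 8 of 191 (4.19%) that made the reverse switch and of 45 of 661 (6.81%) with a gene-end peak at both times. Over all 17492 genes with a promoter sequence it was 1.90%, and over genes with a new gene-end peak and no ESC peak it was 0.729%. The interval of the reverse switch (1.83 to 8.09) includes the share of all genes. With at most 1 mismatch allowed the shares were 11.2%, 16.8% and 21.9%, beside 18.9% of all genes, so the reverse switch then stood below all genes. With the 7-base parts TGCAAAT or ATGCAAA on either strand they were 4.75%, 8.38% and 10.9%, beside 7.15%. The stretches shown for Armc6, Orai1, Chd6 and Dll1 are thus the exception among genes that gained a gene-end peak, and most such promoters lack these 8 letters in the 300 bases searched.

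The functions of the switching genes were described with 27 gene lists, each set beside the same share over all genes. Among lists of 16 or more genes, the 5 with the highest share of gene-end peaks at day 6 were lists of general cell functions. They were listed for 37 of 61 splicing factor genes (60.7%), 47 of 81 cytosolic ribosomal protein genes (58.0%), 22 of 38 DNA replication genes (57.9%), 99 of 171 vesicle traffic genes (57.9%) and 60 of 105 genes of RNA polymerases and general transcription factors (57.1%), beside 29.4% of all genes. In ESCs the gene-end shares of these lists lay between 6.56% and 15.8%, beside 8.52% of all genes. Olfactory receptor genes, which are used mainly by sensory neurons of the nose, had 1 day 6 gene-end peak among 1110 genes (0.0901%).

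The switch from distant to gene-end was made by 16 of 79 histone-modifying enzyme genes (20.3%, beside 9.05% of all genes). It was 30 of 171 (17.5%) for vesicle traffic, 6 of 36 (16.7%) for aminoacyl-tRNA synthetases and 17 of 105 (16.2%) for RNA polymerases and general transcription factors. In each of these lists more genes had a day 6 gene-end peak and no ESC peak. In the same order these were 22, 62, 11 and 32 genes (27.8%, 36.3%, 30.6% and 30.5%, beside 16.7% of all genes). The switch counts moved with the flank. With distant peaks in the gene body only they were 9, 21, 4 and 8, beside 1202 of all 21887 genes. With distant peaks within 50 kb they were 29, 68, 11 and 36, beside 3909 of all 21887 genes, so the lists have no fixed order. The lists also differ in gene length, with a median of 41907 bp for the histone-modifying enzymes and 3175 bp for cytosolic ribosomal proteins, beside 17169 bp for all genes. The part of length in the list shares was not tested.

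**Figure D5:**
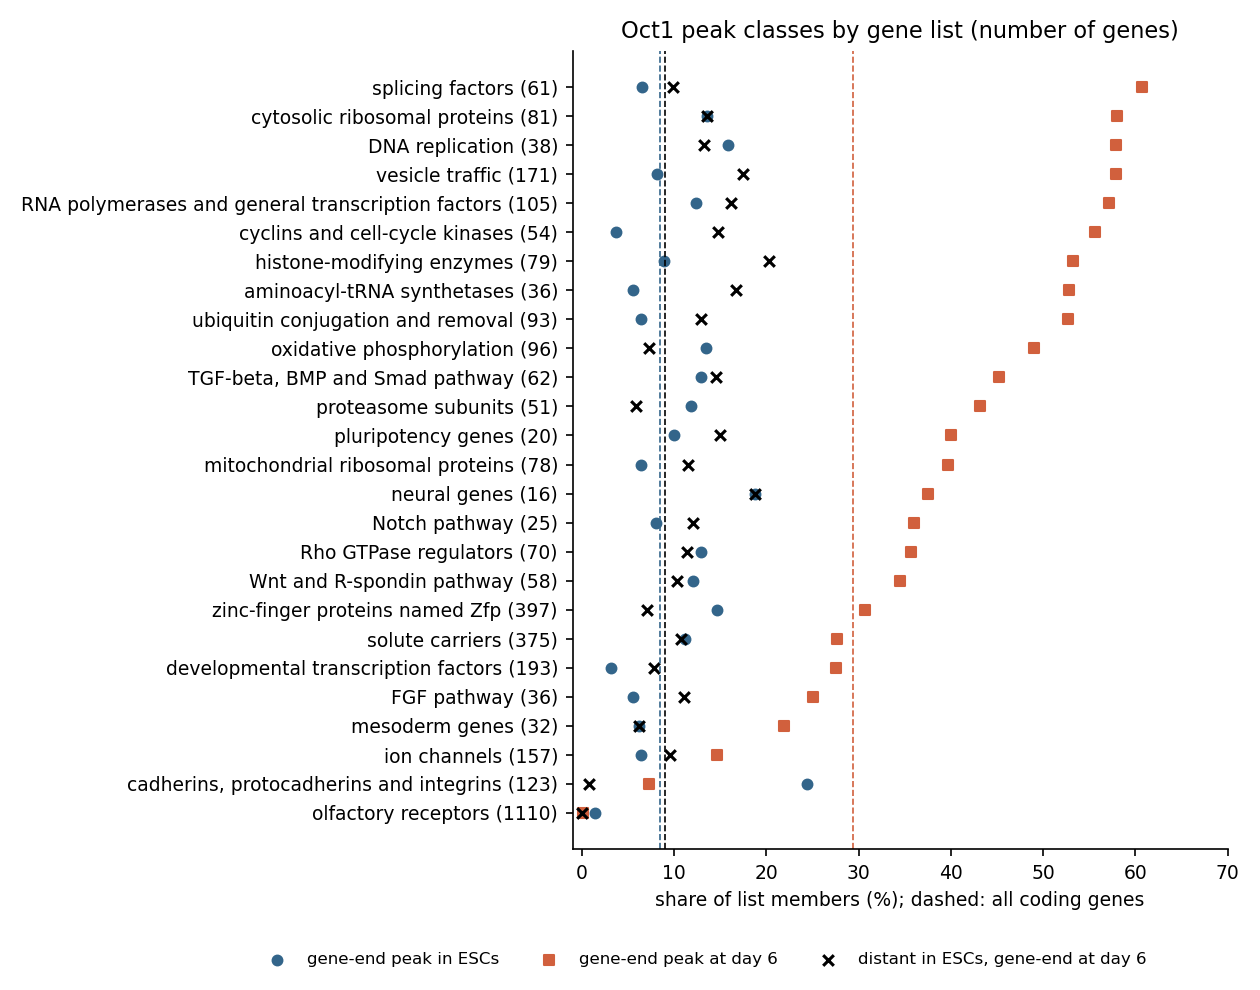
Share (%) of the members of each gene list with a gene-end Oct1 peak in ESCs (circles), with one at day 6 (squares) and with the switch from distant to gene-end (crosses); the number of genes is in brackets, lists of 16 or more genes are shown, and dashed lines mark all protein-coding genes. Day 6 shares run from 60.7% for splicing factors to 0.0901% for olfactory receptors.

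Among histone-modifying enzymes, Kmt2b, a histone H3 methyltransferase gene, had an ESC peak of 602 at 5414 bp and a day 6 peak of 1393 at 210 bp. The ESC site lies at an end of U2af1l4 and was still listed at day 6, where it is the peak given above for Lin37. Kdm4b, a histone demethylase gene, had 6 ESC peaks, the leading one 24945 bp inside the gene (202), and a day 6 peak 130 bp from its end (1218). Kat14, an acetyltransferase gene, went from 282 at 9195 bp to 703 at 43 bp. The deacetylase genes Sirt6 (133 at 331 bp, then 399 at 5873 bp) and Hdac7 (80 at 353 bp, then 74 at 19006 bp) made the reverse switch, the latter through a distant site already listed in ESCs. Among vesicle traffic genes, Rab10 went from 2132 to 1349, Rab5c from 235 to 1252 and Rab37 from 1714 to 1066, and the ESC site of Rab10 was still listed at day 6. Rab GTPases direct the docking and sorting of vesicles.

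In the cell-cycle and replication lists, Ccne1, which encodes cyclin E1, went from 179 at 4780 bp to 1699 at 195 bp. Cdc25a, a phosphatase that activates cyclin-dependent kinases, went from 217 at 6850 bp to 628 at 47 bp. Cdc6, a licensing factor of replication origins, went from 330 at 4988 bp to 910 at 121 bp, and Pola2 and Pold2, subunits of DNA polymerases, reached 1287 and 1651. In the transcription list Med9 of the Mediator complex reached 1289 at its start, and Gtf2f2 of TFIIF 751. Polr2g, a subunit of RNA polymerase II, and Polr3gl, of RNA polymerase III, went the other way. Their distant day 6 peaks lay at ends of Zbtb3 and Lix1l, neighbouring genes, and that of Polr2g was already an ESC site.

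The earlier described Oct1 targets Polr2a, Ahcy, Blcap and Taf12 all had a gene-end peak at day 6, beside 29.4% of all genes. Polr2a, Ahcy and Blcap also had one in ESCs, beside 8.52% of all genes. Ahcy, which hydrolyses S-adenosylhomocysteine, scored 10709 in ESCs (rank 34) and 2075 at day 6 (rank 265), and Blcap 800 (rank 463) and 325 (rank 5257). Taf12, a TFIID subunit gene, was distant in ESCs through a peak 3969 bp away (8028, rank 47) that lies at the small nuclear RNA gene Rnu11, and had a separate day 6 peak 20 bp from its start (755).

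In the TGF-beta, BMP and Smad list, 28 of 62 genes (45.2%, beside 29.4% of all genes) had a gene-end peak at day 6 and 8 (12.9%, beside 8.52%) in ESCs. TGF-beta and BMP ligands signal through paired receptor kinases to Smad proteins, which enter the nucleus and act with other transcription factors. The genes were also grouped by role, a grouping made after their values were seen and given without a test. Of 12 receptor genes, 8 (66.7%) had a gene-end peak at day 6. Of 8 Smad genes, 6 (75%) had one at day 6, and of 30 ligand genes 7 (23.3%). The receptor and Smad shares lay above the 29.4% of all genes and the ligand share below it.

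Of those receptors, Bmpr2, Acvr2a, Acvr1, Tgfbr1, Acvr2b and Bmpr1a had no ESC peak within 10 kb, and their day 6 scores ran from 295 (Acvr1) to 1403 (Acvr2b). The activin receptor gene Acvr1b switched from a peak 7428 bp inside the gene (179) to its start (1181 at 73 bp, chr15:101173711-101174580). Tgfbr3, an accessory receptor, switched from 133 at 78573 bp to 244 at 1 bp. Among the Smad genes, Smad2, which carries activin and TGF-beta signals, had gene-end peaks at both times (339 and 1253). Smad4, the common partner, and Smad5, of the BMP branch, had no ESC peak and reached 1204 and 525 at day 6. Smad3 went from 11 ESC peaks, the highest 156 at 18589 bp, to 1 day 6 peak at its start (203). The inhibitory Smad6 went from 424 at 23119 bp to 1269 at 480 bp (chr9:64021811-64023320), and the inhibitory Smad7 from 190 at 8369 bp to 310 at 174 bp. Smad1, of the BMP branch, had a distant ESC peak (147) and none at day 6.

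The ubiquitin ligase gene Smurf1, which lowers receptor and Smad levels, changed class by a small move, since its ESC peak (111, 1023 bp from the end) and its day 6 peak (1092, 508 bp) overlapped. Among ligands, Bmp7 went from 7 ESC peaks, led by 341 at 3958 bp, to 218 at 134 bp, Gdf6 from 57 to 336, and Inhbb from 100 to 52, a score in the lowest 1% of the day 6 list. Nodal (167) and Lefty2 (595) had distant peaks in ESCs and none at day 6, and Gdf3 lost a gene-end peak (282). Bmp4, the ligand added in culture, had no ESC peak and a distant day 6 peak of 187.

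In the Wnt list 20 of 58 genes (34.5%) had a day 6 gene-end peak, near the 29.4% of all genes. Frizzled, Lrp and Lgr genes encode receptors for Wnt and R-spondin proteins, and 9 of these 15 (60%) had a gene-end peak at day 6, against 2 of 23 ligand genes (8.70%). As for the TGF-beta list, the roles in the Wnt, FGF and Notch lists were grouped after the values were seen, and differences between roles were not tested. Fzd5 stood highest among receptors without an ESC peak, at 2611. Fzd2 switched from 125 at 8800 bp to 1084 at 104 bp. Ctnnb1, which encodes beta-catenin, went from 125 at 3573 bp to 1051 at 55 bp. Tcf7, a DNA-binding partner of beta-catenin, went from 615 at 3182 bp to 1119 at 22 bp, and its relative Tcf7l1 from 14 ESC peaks, the highest 384, to 551 at its start.

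The ligand genes with a day 6 gene-end peak were Wnt4 (66 at 5844 bp, then 327 at 374 bp) and Wnt9a (98 at 9858 bp, then 849 at 88 bp). Wnt3a, a ligand of the primitive streak and presomitic mesoderm, lost a distant ESC peak of 344. Axin2, a feedback inhibitor and common readout of Wnt signalling, made the reverse switch, from 144 at its far end to 836 at 3037 bp. That day 6 peak lay 516 bp from a listed start of Axin2, so it may also be counted at a promoter.

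In the FGF list, which holds ligands, receptors, feedback inhibitors and Fgfr1op2, 9 of 36 genes (25%) had a day 6 gene-end peak, near the 29.4% of all genes. Fgfr1op2, grouped in none of these roles, was among them (871). Of 9 Sprouty, Spred and Dusp genes, which encode feedback inhibitors, 6 (66.7%) had one, against 1 of 22 ligand genes (4.55%) and 1 of 4 receptor genes (25%). Spry4 went from 110 at 8603 bp to 832 at 323 bp, Dusp4 from 63 at 2963 bp to 474 at 409 bp, and Spred2 from 863 at 9181 bp to 203 at 868 bp. The receptor gene Fgfr3 went from 65 at 2542 bp to 480 at 101 bp. Fgf4, a ligand made by ESCs, lost a distant peak of 395, and Fgf17, of the primitive streak and presomitic mesoderm, one of 773.

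In the Notch list, which holds the receptors and ligands of contact-dependent signalling, 9 of 25 genes (36%) had a day 6 gene-end peak, near the 29.4% of all genes. These were 3 of 5 ligand genes (60%), 2 of 4 receptor genes (50%), 3 of 9 Hes and Hey genes (33.3%), which encode repressors induced by Notch, and Rfng. Notch2 went from 424 at 64406 bp to 463 at 62 bp. Rfng, a glycosyltransferase that modifies Notch, went from 728 at 4469 bp to 725 at 69 bp, nearly equal scores that stood at percentiles 97.1 and 65.1 of their lists. Dll1, shown above, had its ESC peak with Oct4 and its gene-end peak already at day 3.

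Of 32 mesoderm genes, 7 (21.9%) had a day 6 gene-end peak, beside 29.4% of all genes. The switch was made by 2 of the 32 (6.25%, beside 9.05% of all genes), Dll1 and Pax3, a paired-box gene of the dermomyotome (64 at 6694 bp, then 122 at 80 bp, percentile 10.2). With distant peaks in the gene body only, the count was 0, and within 50 kb it was 3 (1202 and 3909 of all 21887 genes). Snai1, Cited2, Twist1 and Gata6 had no ESC peak and a day 6 gene-end peak, with scores from 71 (Cited2) to 173 (Twist1), all below percentile 20 of the day 6 list. Kdr, a VEGF receptor gene, had a gene-end peak at both times (144, then 196). Tbx6, a T-box gene of the presomitic mesoderm (1506), Foxc2 (1178), Ripply2, a segmentation gene (737), Dll3 (289), Meox1 (213) and Uncx (45) gained distant peaks. Eomes, a T-box gene of the primitive streak, lost a gene-end peak (122). Distant ESC peaks at Myog (686), Hand1 (341), Mesp2 (310), Gata4 (217), Pdgfra (133) and Pax7 (48) had no day 6 counterpart, and the other 12 genes had a peak at neither time.

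Of the 20 pluripotency genes, 8 (40%) had a day 6 gene-end peak, beside 29.4% of all genes. From distant to no peak went 5 (25%, beside 11.9% of all genes), and from gene-end to no peak 2 (10%, beside 3.78%). The switch was made by Lin28a, an inhibitor of let-7 processing (100 at 7315 bp, then 367 at 60 bp), Klf2 (179 at 7861 bp, then 351 at 141 bp) and Tbx3 (69 at 9953 bp, then 205 at 156 bp). Sox2, Klf4, Sall4, Klf5 and Gbx2 had no ESC peak and day 6 gene-end peaks, with best scores of 957, 737, 545, 345 and 185. A gene-end peak was lost at Zfp42 (2665, percentile 99.3) and at Nanog (214). Distant peaks were lost at Esrrb, which had 12 ESC peaks led by 641, and at Fgf4 (395), Utf1 (207), Tfcp2l1 (179) and Prdm14 (100). Pou5f1, which encodes Oct4, was distant at both times (597, then 859). Of 16 neural genes, 3 (18.8%, beside 9.05% of all genes) went from distant to gene-end and 2 (12.5%, beside 1.09%) the other way. With distant peaks in the gene body only, the first count was 0, and within 50 kb it was 4 (1202 and 3909 of all 21887 genes). Zic1 had its highest score at a site 2202 bp beyond the gene at both times (2154, then 6518) and gained a peak at its start at day 6 (1061). Neurog2 (53, then 375) and Zic2 (92, then 193 at the gene end) switched in the same direction. Nes, which encodes the intermediate filament nestin, made the reverse switch, from 80 at 665 bp, at its far end, to 187 at 2734 bp, a site that was also listed in ESCs, where the highest score of the gene was 193. Pax6, a regulator of eye and neural development, did so too, from 100 at its start to 791 at 6364 bp. That site was also listed in ESCs and held the higher ESC score of the gene, 1232 (percentile 98.4 in ESCs, 69.3 at day 6).

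Among cadherin, protocadherin and integrin genes, 30 (24.4% of the list, beside 8.52% of all genes) had a gene-end peak in ESCs, and 28 (22.8%, beside 3.78%) had one in ESCs and no peak at day 6. These 30 genes rested on 11 peaks, since the clustered protocadherins overlap one another, so the count is not one of separate sites. Of 157 ion channel genes, 82 (52.2%, beside 26.4% of all genes) were distant in ESCs. Of the list, 47 genes (29.9%, beside 11.9% of all genes) went from distant to no peak, and 15 (9.55%, near the 9.05% of all genes) from distant to gene-end. Ion channel genes were long (median 46742 bp). The channels that switched with high scores included Kcnn1 (195, then 1490) and Kcnab2 (136, then 830), and the ESC site of Kcnn1, at an end of Arrdc2, was still listed at day 6. Among 375 solute carrier genes, 40 (10.7%) went from distant to gene-end, near the 9.05% of all genes. The other way went 7 (1.87%), beside 1.09% of all genes.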

How the data were processed

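Per the labels' protocols, ChIP libraries were sequenced as paired reads, and per the submitters' processing notes Novoalign 3.8.2 and the build mm10 were used. The peak caller, its threshold and the use of the input libraries are not given in the sources used here. Each deposited list had 5 columns, and the score in the fifth was the authors' value per peak, without a unit, on 1 library and not on pooled samples. Depth is unknown. Inputs, conditional knockout and retinoic acid samples were not analysed here.

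Peak midpoints were set against 49943 RefSeq genes (GRCm38.p6), of which 21887 were protein-coding. Shares of peaks used the ends of all genes, and gene classes used those of protein-coding genes. The gene table holds no exons, so exonic and intronic positions are not known. Promoter sequences and strand matched 17492 protein-coding genes (79.9%). Score percentiles were midranks within a list, and overlap meant at least 1 bp. Versions were numpy 2.4.6, scipy 1.17.1, pandas 2.3.3, matplotlib 3.10.9 and Python 3.11.15, and overlaps were checked with bedtools 2.31.1. The classification was tested on simulated data.

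Members and gene lists were chosen with earlier results of these data known. Named genes were the 10 (distant to gene-end), 8 (reverse), 4 and 4 (class kept) with the highest value of the smaller of their percentiles on the 2 sides, the 3 largest rises and falls, switching members of the pathway, pluripotency and mesoderm lists, the earlier Oct1 targets, and up to 3 switching members of each other list. Genes of the pathway, mesoderm, pluripotency and neural lists that did not switch were named after their values were seen. Alternatives varied the windows, the gene set, the overlap, the list length and the motif. Not every gene that the rule selects is described.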

Additional observations from a re-analysis of the deposited data

How the results depend on the processing

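In all, 44 results were recomputed under 113 alternative values. These are counts, shares and medians, which have no sign to reverse. Of them 34 stayed within their limits (the interval of a share, or 1.5 times a count) and 79 moved, 37 of them among the 54 values for gene lists. The number of genes going from distant to gene-end (1981) was 1202 with distant peaks in the gene body only, 3909 with distant peaks within 50 kb, 762 with the higher-scoring 50% of each list and 1196 with the ESC list shortened to 7758 peaks. For the reverse switch (239) these counts were 89, 625, 103 and 143. It was also 106 when a peak at another gene end never counted as distant, 116 when only the transcription start counted and 399 over all annotated genes. Alternatives chosen after the data were seen gave 2139 and 216 genes when any listed start counted, and 1799 and 189 when peaks between 1 and 3 kb counted as neither.

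With gene-end windows of 500 bp, 2 kb and 5 kb, the gene-end share was 11.1%, 24.8% and 40.3% in ESCs and 70.5%, 81.9% and 88.0% at day 6. It was 21.2% and 86.5% in the higher-scoring 50%, and 9.66% and 71.7% with the ends of protein-coding genes only. The share of ESC peaks overlapping a day 6 peak was 15.7% at gene ends and 3.42% farther away when each peak had to cover 50% of the other, and 16.9% and 1.11% in the higher-scoring 50%. Windows of 500 bp and 5 kb gave median percentiles of 71.6 and 55.2 for ESC gene-end peaks, 57.5 and 53.6 for day 6 gene-end peaks, and 27.6 and 16.1 for day 6 peaks farther away. The share of ESC-distant genes with a day 6 gene-end peak exceeded that of all genes under each class alternative run (19.5% against 17.4% at the closest, in the higher-scoring 50%). With the ESC list shortened, an alternative chosen after the data were seen, the share of shared sites lower in the day 6 list was 74.8% (87.3% with the whole list), 66.7% at gene ends and 85.8% farther away. The order of the octamer share of the reverse switch against all genes turned with 1 mismatch allowed (4.19% against 1.90%, then 16.8% against 18.9%). No paired analysis was possible because each group had 1 library and no result comes from a test.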
